A study of Mus musculus with 4 samples.

Results

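Circadian clock genes were followed in mouse brain 6 h after a stroke was produced by permanent occlusion of the middle cerebral artery. The set held 10 genes, taken by symbol: Per1, Per2, Per3, Cry1, Cry2, Clock, Nr1d1, Nr1d2, Dbp and Tef. All 10 were on the array through RefSeq accessions, by 19 of its 41174 probes, among 33269 features in all. The tissue came from male C57BL/6J mice aged 9 weeks that had been anesthetized with sevoflurane in oxygen and nitrous oxide, occluded with an intraluminal filament and given saline into the ventricle. The groups were ischemic core, the tissue with the deepest loss of flow, with its healthy counterpart, and ischemic penumbra, the zone around it, with its healthy counterpart. Each of 4 two-color arrays held RNA of ischemic tissue and of the matching healthy tissue, each in its own dye. Core replicates 1 and 2 and penumbra replicates 3 and 4 formed dye-swapped pairs, with ischemic RNA in Cy5 on replicates 1 and 3 and in Cy3 on replicates 2 and 4. The labels speak of 3 mice per group, without saying whether their RNA was pooled, whether the 2 arrays of a region held separate extracts, or whether healthy tissue came from the same animals. They give no hour of the day at which tissue was taken, so time of day and ischemia cannot be told apart if the healthy pieces came from other mice at another hour.

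The circadian clock is a feedback loop of transcription. CLOCK and BMAL1 (encoded by Arntl) bind E-boxes and switch on the Per and Cry genes, whose proteins come back to the nucleus and inhibit CLOCK and BMAL1. In a second loop, the nuclear receptors REV-ERB alpha and beta (Nr1d1 and Nr1d2) repress Arntl. A further arm acts at D-boxes, where the related leucine zipper proteins DBP, TEF and HLF activate and NFIL3 represses. Per1 and Per2 are also known as genes that respond within hours to light, neuronal activity and stress hormones, through CREB and the glucocorticoid receptor.

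Promoter windows of members that lay high or low in both regions (Per1, Cry1 and Dbp) and of the member whose window holds D-boxes (Per3) are shown here because the members are controlled through these elements. Each runs from 250 bases before to 50 bases after an annotated start, 5′ to 3′ on the gene's strand, from RefSeq on GRCm38.p6. Capitals mark matches, on either strand, to the E-box CACGTG, the related CACGTT, the D-box TTATGTAA or TTACGTAA, and TGACG, the core of the cAMP response element (CRE). None of these matches overlapped another.
Per1, chr11:69098699-69098998, plus strand: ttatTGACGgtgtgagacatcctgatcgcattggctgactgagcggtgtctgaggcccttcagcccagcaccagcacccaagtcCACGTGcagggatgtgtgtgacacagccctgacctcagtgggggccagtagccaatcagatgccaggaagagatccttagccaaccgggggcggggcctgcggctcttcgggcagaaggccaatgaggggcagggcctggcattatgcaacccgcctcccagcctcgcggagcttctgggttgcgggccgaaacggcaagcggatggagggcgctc
Per1, chr11:69099902-69100201, plus strand: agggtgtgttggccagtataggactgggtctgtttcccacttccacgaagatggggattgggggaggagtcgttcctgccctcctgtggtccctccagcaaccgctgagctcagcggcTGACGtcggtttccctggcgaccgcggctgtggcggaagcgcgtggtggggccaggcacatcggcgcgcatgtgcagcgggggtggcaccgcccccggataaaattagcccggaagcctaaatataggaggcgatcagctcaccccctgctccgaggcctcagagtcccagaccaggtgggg
Cry1, chr10:85185005-85185304, minus strand: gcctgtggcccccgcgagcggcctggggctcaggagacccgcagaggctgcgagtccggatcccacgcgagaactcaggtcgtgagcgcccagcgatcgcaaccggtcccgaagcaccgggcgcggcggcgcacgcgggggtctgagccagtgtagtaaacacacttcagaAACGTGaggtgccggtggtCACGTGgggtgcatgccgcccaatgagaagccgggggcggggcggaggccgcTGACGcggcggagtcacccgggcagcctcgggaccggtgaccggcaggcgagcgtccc
Dbp, chr7:45704997-45705296, plus strand: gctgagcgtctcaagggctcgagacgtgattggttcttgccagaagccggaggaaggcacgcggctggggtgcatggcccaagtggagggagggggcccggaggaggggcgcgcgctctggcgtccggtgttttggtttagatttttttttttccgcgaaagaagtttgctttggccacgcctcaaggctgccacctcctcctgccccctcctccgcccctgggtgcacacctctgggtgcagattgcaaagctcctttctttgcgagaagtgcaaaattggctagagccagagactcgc
Per3, chr4:151044616-151044915, minus strand: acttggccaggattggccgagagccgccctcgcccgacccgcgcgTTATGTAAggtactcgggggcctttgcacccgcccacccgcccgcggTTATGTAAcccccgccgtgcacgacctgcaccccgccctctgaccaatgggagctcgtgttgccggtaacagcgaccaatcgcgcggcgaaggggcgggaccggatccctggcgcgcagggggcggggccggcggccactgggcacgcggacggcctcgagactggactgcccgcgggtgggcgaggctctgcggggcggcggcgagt

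The reference table held 13 windows for 9 of the 10 members; Per2 had none there. Among all 32851 windows in the table, 7.15% held CACGTG, 4.68% CACGTT, 1.06% a D-box and 20.8% TGACG. The window of Cry1 held CACGTG 60 bases before its start, CACGTT 79 bases before it and TGACG 8 bases before it. The upstream window of Per1 held CACGTG 166 bases and TGACG 246 bases before its start, and the downstream window held TGACG 132 bases before its start. Per3 held TTATGTAA both 205 and 158 bases before its start, and 0.0244% of all windows held 2 or more D-boxes. Both windows of Tef held CACGTG, at 127 and 138 bases before the start. Those of Cry2 and Nr1d1 held CACGTT, and that of Cry2 also TGACG. Dbp held none of these letters in its window, and a match or its lack describes the window only.

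By channel, 76.1% to 79.4% of spots exceeded background clearly and 0 were saturated. Every one of the 19 clock probes was well above background in both tissues on all 4 arrays. Markers of neurons, 8 of 8, were well above background in every channel. All ratios are ischemic over healthy, in log2, after loess within each array, and so are relative to the bulk of genes. The array's 10 spike-in control probes had a shift of 0.475 in core and 0.463 in penumbra on this scale, and scaling to them would lower every ratio by that much; the amounts of spike-in added to each RNA are not given in the sources used here. A dye-swapped pair was counted as 1 replicate, so no p-value belongs to the main results, and each error is the SD between the 2 arrays. This SD includes the bias of the dyes, of opposite sign on swapped arrays, which cancels in the mean. In bulk tissue, fewer cells that make a transcript and less of it per cell cannot be told apart.

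A gene was called where the mean of the pair was at least 0.322 log2 in size and both arrays had the same sign. A stricter count asked for 2-fold in the mean and 1.5-fold on each array. In the core, Per1, Per2 and Cry1 were called higher and Dbp lower, so 3 of 10 members were higher and 1 lower. Of 24533 features, 4.4% were called higher and 0.982% lower. The same 4 genes were called in the same directions in the penumbra, where 5.35% of 24925 features were higher and 2.44% lower. On the spike-in scale described above, 1 member was higher and 6 lower in the core, and 0 higher and 7 lower in the penumbra. The calls of Per1 and Cry1 ended in both regions and that of Per2 in the penumbra. This scale lowers every feature of a region by the same amount, so the members keep their places among all features. The share of all features called on it was not counted, so these counts do not set the members apart. By the stricter count 0 members were called in either region, against 0.31% of features higher and 0.0% lower in the core, and 0.241% higher and 0.00401% lower in the penumbra. The median over the 10 members was 0.10 in core and -0.013 in penumbra, beside -0.0070 and -0.0090 over all features.

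**Figure D1:**
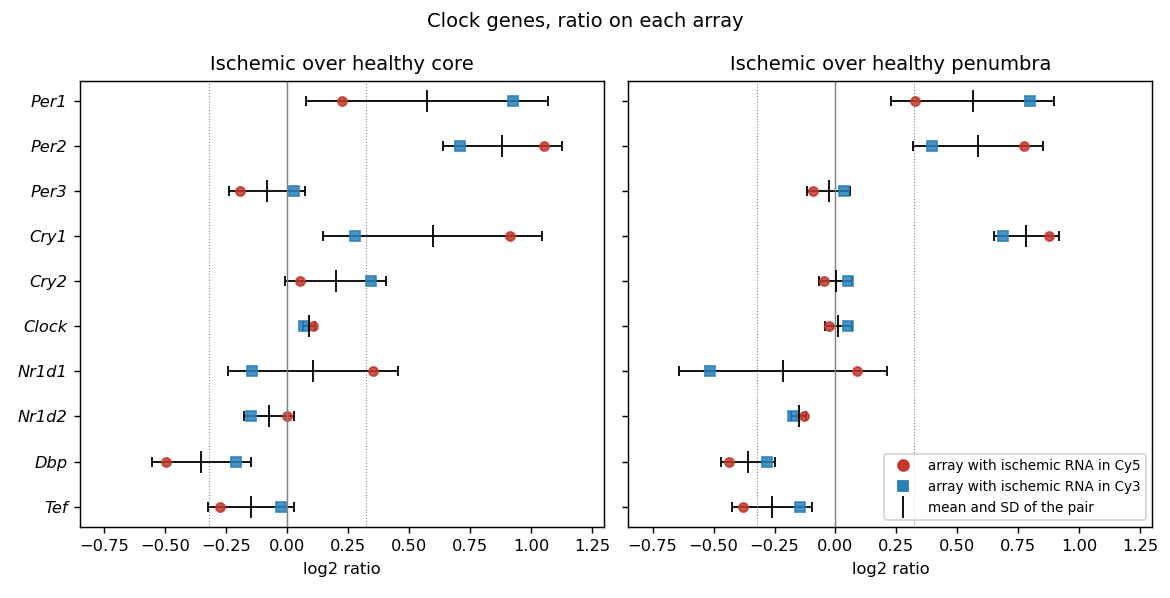
Log2 ratio of ischemic over healthy tissue for the 10 clock genes in core (left) and penumbra (right). Circles and squares are single arrays, by the dye of the ischemic RNA; ticks and bars are the mean and SD of the pair, and dotted lines mark 0.322. On both arrays of each region Per1, Per2 and Cry1 lie above 0 and Dbp lies below it, relative to the bulk of genes; on a spike-in scale the means of Per1, Per2 and Cry1 are 0.10 to 0.41, and of these only Per2 in the core is still past the call.

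The period genes encode the PER proteins, the limiting part of the repressor complex. Per1 (chr11:69095108-69109965) had log2 signals of 12.19 and 12.62 in ischemic core, against 11.97 and 11.70 in healthy core. In ischemic penumbra its signals were 12.13 and 12.45, against 11.80 and 11.65 in healthy penumbra. All 4 ischemic values lay above all 4 healthy ones. The log2 ratio of Per1 was 0.57 ± 0.50 in the core (1.49-fold; 0.22 on array 1 and 0.93 on array 2) and 0.56 ± 0.33 in the penumbra (1.48-fold; 0.33 on array 3 and 0.80 on array 4). The larger ratio came in both regions from the array with ischemic RNA in Cy3. The dye bias of this probe, its mean Cy5 over Cy3 ratio, was -0.35 for the core pair and -0.23 for the penumbra pair. A mean ratio as high as that of Per1 was seen in 1.23% of features for core and 1.41% for penumbra. Without core replicate 2 the core ratio was 0.22 and no longer past the call.

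Per2 (chr1:91415977-91459351) had the largest core ratio among the members. Its signals were 10.12 and 9.92 in ischemic core, against 9.06 and 9.21 in healthy core. In ischemic penumbra they were 10.32 and 9.89, against 9.55 and 9.49 in healthy penumbra. Here too every ischemic value lay above every healthy one. The ratio was 0.88 ± 0.24 in the core (1.84-fold), with 0.44% of features as high, and 0.59 ± 0.27 in the penumbra (1.5-fold), with 1.26% as high. Array by array Per2 was at 1.05 and 0.71 in the core, and 0.77 and 0.40 in the penumbra.

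A second, dimmer probe of Per2 did not show this. Its ratio was -0.0088 ± 0.067 in core and -0.084 ± 0.014 in penumbra, and its signals spanned only 7.30 to 7.47 over all 8 channels. Its mean log2 intensity was 7.4, against 9.69 for the brighter probe. With the mean over both probes the Per2 ratio was 0.44 in the core, still past the call, and 0.25 in the penumbra, below it. Which transcripts or how much stray signal each probe measures was not tested.

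Per3 (chr4:150997018-151044707), the family member least needed for rhythms in mice, was not called. Its signals were 7.80 and 7.97 in ischemic core, against 7.99 and 7.94 in healthy core, and 7.74 and 7.99 in ischemic penumbra, against 7.83 and 7.95 in healthy penumbra. The groups overlapped in both regions. The ratio was -0.082 ± 0.16 in core and -0.028 ± 0.088 in penumbra.

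The cryptochromes are the partners of the PER proteins and the stronger inhibitors of CLOCK and BMAL1. Cry1 (chr10:85131700-85185054) had signals of 8.74 and 7.31 in ischemic core, against 7.83 and 7.03 in healthy core. In ischemic penumbra they were 8.75 and 8.54, against 7.87 and 7.86 in healthy penumbra. Both channels of core replicate 2 were low for this probe, so the core groups overlapped across arrays while each array put ischemic above healthy. The ratio was 0.60 ± 0.45 in the core (1.51-fold; 0.91 and 0.28) and 0.78 ± 0.13 in the penumbra (1.72-fold; 0.88 and 0.69). As high were 1.11% of features in core and 0.477% in penumbra. Without core replicate 1 the core ratio was 0.28 and no longer past the call.

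The second probe of Cry1 gave tighter values and the same calls. Its signals were 8.06 and 8.10 in ischemic core, against 7.58 and 7.59 in healthy core, and 8.14 and 7.88 in ischemic penumbra, against 7.59 and 7.51 in healthy penumbra. Its ratio was 0.49 ± 0.019 in core and 0.46 ± 0.12 in penumbra. For Cry1, then, every ischemic value of this probe lay above every healthy one, and array 2 was not low.

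Cry2 (chr2:92403646-92434085) was not called. Its signals were 12.47 and 12.62 in ischemic core, against 12.42 and 12.27 in healthy core, which did not overlap. In ischemic penumbra they were 12.26 and 12.35, against 12.31 and 12.30 in healthy penumbra. The ratio was 0.20 ± 0.21 in core and 0.0018 ± 0.068 in penumbra. Its second probe gave 0.10 ± 0.078 and -0.052 ± 0.13.

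**Figure D2:**
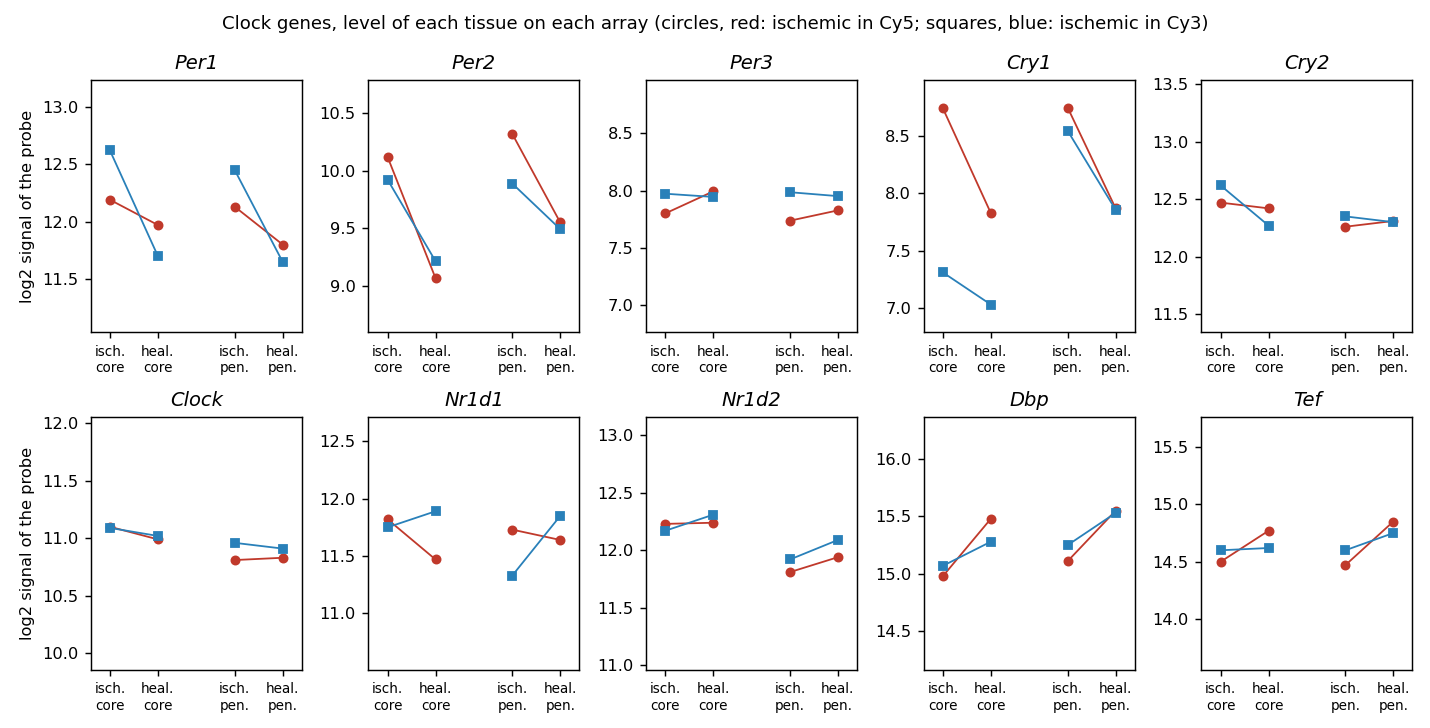
Normalized log2 signal of the 10 clock genes in ischemic and healthy core and in ischemic and healthy penumbra; each line joins the 2 channels of an array. Each panel spans the same range, and levels are not comparable between panels because probes differ. For Per1 and Per2 all ischemic points lie above all healthy ones, for Dbp all lie below, and core replicate 2 is low in both channels for Cry1.

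**Figure D3:**
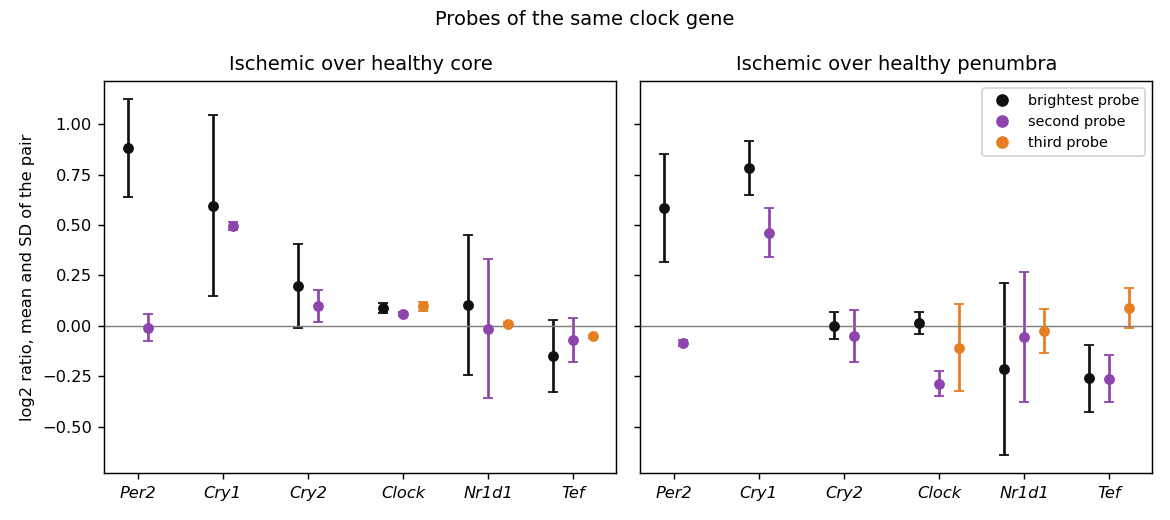
Mean and SD of the pair for each probe of the 6 clock genes with more than 1 probe, in core and penumbra, on the log2 scale. The probes of Cry1 both lie above 0, while the second probe of Per2 lies at -0.0088 and -0.084, and the probes of Clock spread from 0.01 to -0.29 in the penumbra.

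Clock, the DNA-binding partner of BMAL1 that drives the loop, was not called. Clock (chr5:76209868-76305603) had signals of 11.10 and 11.09 in ischemic core, against 10.99 and 11.02 in healthy core, and 10.81 and 10.96 in ischemic penumbra, against 10.83 and 10.91 in healthy penumbra. The ratio was 0.088 ± 0.026 in core and 0.012 ± 0.054 in penumbra. In the core its 3 probes lay between 0.060 and 0.097. In the penumbra the other 2 probes gave -0.29 and -0.11, so the size of any difference there depends on the probe.

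The REV-ERB receptors turn the second loop. Nr1d1 (chr11:98767932-98775377) had signals of 11.82 and 11.75 in ischemic core, against 11.47 and 11.89 in healthy core. In ischemic penumbra they were 11.73 and 11.33, against 11.64 and 11.85 in healthy penumbra. The groups overlapped in both regions and the arrays of each pair had opposite signs. The ratio was 0.10 ± 0.35 in core and -0.21 ± 0.43 in penumbra, and the dye bias of the probe was 0.25 and 0.30. Nr1d2 (chr14:18204056-18239106) had signals of 12.23 and 12.17 in ischemic core, against 12.24 and 12.31 in healthy core, and 11.81 and 11.92 in ischemic penumbra, against 11.94 and 12.09 in healthy penumbra. Its ratio was -0.076 ± 0.10 in core and -0.15 ± 0.032 in penumbra, negative on all 4 arrays but not past the call.

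Of the D-box activators among the members, Dbp was called lower and Tef was not called. Dbp (chr7:45705100-45710203), a strongly rhythmic target of CLOCK and BMAL1, had signals of 14.98 and 15.07 in ischemic core, against 15.48 and 15.28 in healthy core. In ischemic penumbra its signals were 15.11 and 15.25, against 15.55 and 15.53 in healthy penumbra. All 4 ischemic values lay below all 4 healthy ones. The ratio was -0.35 ± 0.20 in the core (0.783-fold; -0.50 and -0.21) and -0.36 ± 0.11 in the penumbra (0.779-fold; -0.44 and -0.28). As low were 0.693% of features in core and 1.55% in penumbra. These means lie just past the call of 0.322, which ended at -0.21 without core replicate 1 and at -0.28 without penumbra replicate 3. The gene has a single probe on the array.

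Tef (chr15:81802673-81826863) was negative on all 4 arrays and not called. Its signals were 14.50 and 14.60 in ischemic core, against 14.77 and 14.62 in healthy core, and 14.47 and 14.60 in ischemic penumbra, against 14.85 and 14.75 in healthy penumbra. The ischemic values lay below the healthy ones in each region. The ratio was -0.15 ± 0.18 in core and -0.26 ± 0.17 in penumbra, where 5.14% of features were as low. The second probe gave -0.069 and -0.26, and the third gave -0.053 in core and 0.087 in penumbra.

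**Figure D4:**
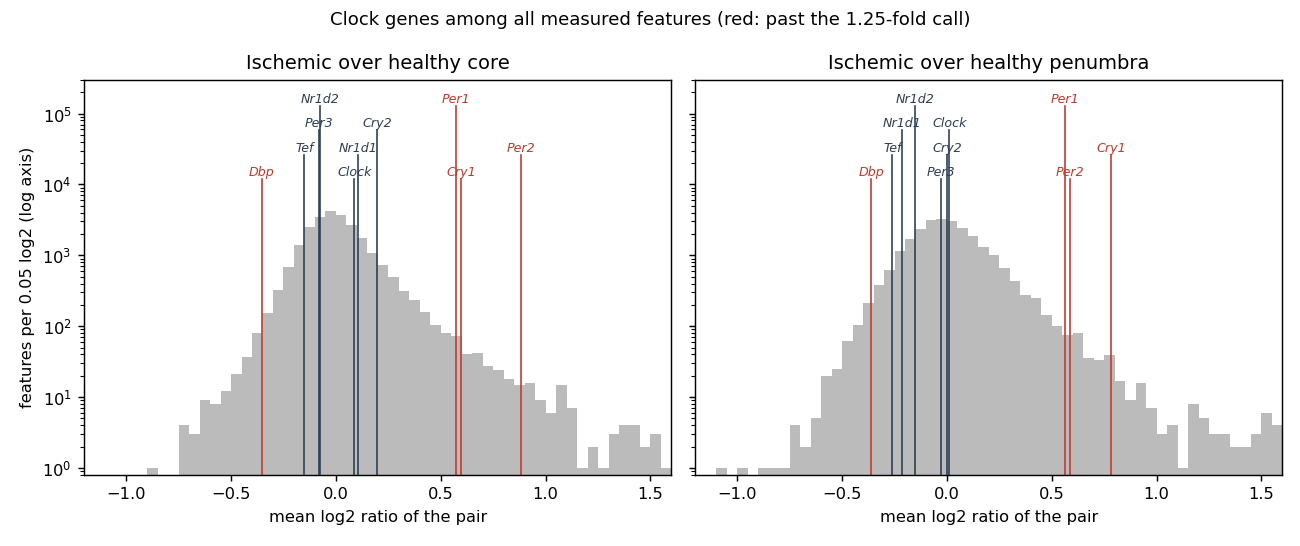
Number of features per 0.05 log2 of the mean ischemic over healthy ratio, on a log axis, in core (left, 24533 features) and penumbra (right, 24925 features), with the clock genes as lines. Per1, Per2 and Cry1 lie in the upper tail and Dbp in the lower one (red), while the other 6 lie nearer to 0; features outside -1.2 to 1.6 are not drawn.

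Other genes of the clock were read from a list of 29, all measured. In the core 3 of 29 were called higher and 0 lower, with a median of 0.061. In the penumbra 2 of 29 were higher and 0 lower, with a median of -0.0060. These shares are set beside 4.4% and 5.35% of all features called higher. The largest was Nfil3, the repressor at D-boxes, which passed the stricter count as well. Its ratio was 1.5 ± 0.21 in the core (2.84-fold; 1.65 and 1.36) and 1.59 ± 0.18 in the penumbra (3.01-fold; 1.72 and 1.46). Nfil3 was thus high in the tissues where the activator Dbp, which acts at the same element, was low, just past the call. Activity at D-boxes was not measured, and a link between Nfil3 and Dbp was not tested. The remaining activator, Hlf, was at -0.13 ± 0.063 in core and at -0.20 ± 0.085 in penumbra, not called.

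Bhlhe40, which encodes the E-box repressor DEC1, had 0.50 ± 0.024 in the core and was called there, and 0.11 ± 0.030 in the penumbra. Sik1, a kinase induced through CREB, had 0.60 ± 0.26 in the core and was called there, and 0.31 ± 0.19 in the penumbra. Noct, a rhythmic phosphatase of NADP(H), had 0.36 ± 0.067 in the penumbra and was called there, and 0.24 ± 0.0046 in the core. On the spike-in scale the penumbra ratio of Noct would be -0.11, while those of Bhlhe40 and Sik1 in the core would be 0.027 and 0.12 and those of Nfil3 would be 1.03 and 1.13. Arntl, the partner of Clock, was at 0.20 ± 0.12 in core and 0.19 ± 0.15 in penumbra, positive on all 4 arrays and not called.

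Because Per1 and Per2 respond to CREB and to glucocorticoids, lists of genes known for each route were set beside them. Whether either route acted on Per1 or Per2 here was not tested. Of 14 CREB-inducible immediate early genes, which share Sik1 and Crem with the clock list, 12 were called higher in core and 11 in penumbra, with medians of 1.40 and 1.55; of all features 4.4% and 5.35% were called higher. Npas4 was at 4.19 ± 0.10 in core and 3.71 ± 0.042 in penumbra, Fos 3.34 ± 0.32 and 3.02 ± 0.31, Egr2 3.13 ± 0.067 and 2.99 ± 0.14, and Arc 2.40 ± 0.085 and 2.27 ± 0.19. These 4 had the largest core ratios of the list; at its low end Crem was at 0.23 and 0.22 and Nr4a2 at 0.13 and 0.26, and neither was called. Of 13 measured glucocorticoid-induced genes, 3 were called higher and 4 lower in the core, and 1 higher and 2 lower in the penumbra, beside 4.4% and 0.982% of features in the core and 5.35% and 2.44% in the penumbra. Fkbp5, a chaperone of the receptor and a standard target of it, was at -0.67 ± 0.066 in core and -0.50 ± 0.11 in penumbra. Sult1a1, a sulfotransferase, had -0.66 ± 0.12 and -0.33 ± 0.060, Plin4, a lipid droplet protein, -0.59 ± 0.0069 and -0.16 ± 0.080, and Errfi1, an inhibitor of the EGF receptor, 0.59 ± 0.14 and 0.38 ± 0.17. On the spike-in scale Errfi1 would be at -0.083 in the penumbra, and Fkbp5 at -1.14 in core and -0.96 in penumbra.

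For Per1, Per2 and Dbp, the genes with the most similar pattern were taken over 3 values, the core response, the penumbra response and the healthy core minus healthy penumbra difference, among 13609 measured genes with a symbol. Nearest to Per1 were F2 (distance 0.025 log2), which encodes prothrombin, and Hilpda (0.030), a lipid droplet protein. Nearest to Per2 were Zfp36 (0.10), an RNA-binding protein that destabilizes cytokine transcripts, and Il1r2 (0.12), a decoy receptor for interleukin-1. Nearest to Dbp were Acr (0.075), the sperm protease acrosin, and Hip1 (0.081), an endocytic adaptor.

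The regions were then set against each other. The response of core minus that of penumbra, taken between arrays of the same dye orientation so that dye bias cancels, called 0 of 10 clock genes, against 1.46% of 25246 features higher and 1.78% lower. By the stricter count 0.0396% of features were higher and 0.0198% lower. Limma over arrays called 0 members as well, beside 2 of 25246 features higher and 0 lower, with 0 members at an unadjusted p under 0.05. With a dye coefficient it called 2 members, beside 871 of 25246 features higher and 920 lower. Closest to the call were Nr1d1 at 0.32 ± 0.078 (0.26 and 0.37) and Per2 at 0.30 ± 0.023 (0.28 and 0.31), both higher in the core in both orientations. These are the 2 that limma with a dye coefficient called, with adjusted p of 0.0152 and 0.0187; such p-values reflect array-to-array spread alone. The other probes do not carry these differences: those of Nr1d1 gave 0.041 and 0.035 and the dim one of Per2 gave 0.076, while the second probe of Clock gave 0.35, past the call. As high as these differences were 1.55% and 1.94% of features. For Nr1d1 it joins a core response of 0.10 and a penumbra response of -0.21, neither of which was called. For Per1 the difference was 0.012 ± 0.16 and for Dbp 0.0065 ± 0.092, both smaller than the spread between orientations. Of the other clock genes, Bhlhe40 at 0.39 ± 0.054 and Ciart, a repressor of CLOCK and BMAL1, at 0.37 ± 0.14 were called higher, 2 of 29.

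**Figure D5:**
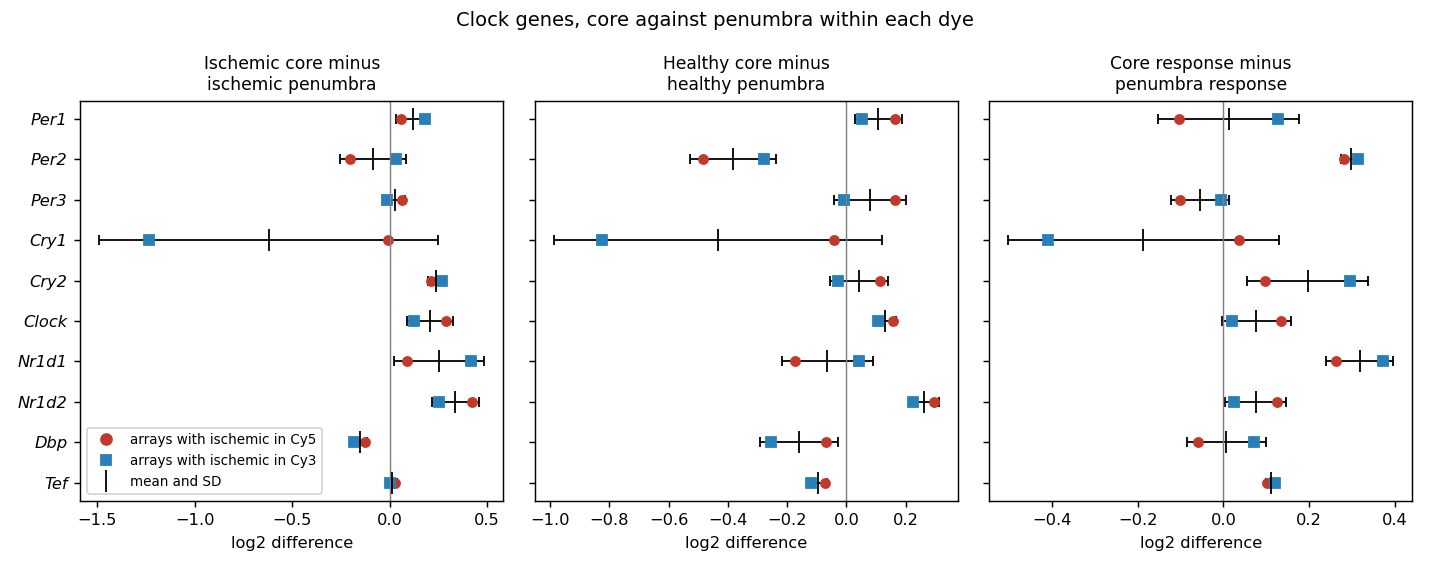
Core against penumbra for the 10 clock genes, as log2 differences between arrays of the same dye orientation: ischemic pieces (left), healthy pieces (middle) and responses (right), with the mean and SD of the 2 orientations. The x axes differ in range. Cry1 departs from 0 in 1 orientation only, and Per2 lies below 0 in healthy tissue and above 0 in the response in both.

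Levels in the dissected pieces themselves were compared within each dye. In ischemic tissue 1 member was called higher in core than in penumbra and 1 lower, against 8.89% and 8.86% of 24872 features (0.442% and 0.913% by the stricter count). These were Nr1d2 at 0.34 ± 0.12 and Cry1 at -0.62 ± 0.87. In healthy tissue 0 members were called higher in core and 2 lower, against 6.97% and 7.32% of 24891 features (0.313% and 0.82% by the stricter count). Per2 differed by -0.38 ± 0.14 and Cry1 by -0.43 ± 0.55. The values of Cry1 rest on core replicate 2: between arrays 1 and 3 it differed by -0.0067 in ischemic and -0.043 in healthy tissue, and its second probe gave 0.067 and 0.036. The dimmest probe of Clock differed by -1.15 between the healthy pieces of arrays 2 and 4 and by -0.11 between those of arrays 1 and 3. Between ischemic pieces Per2 differed by -0.085 ± 0.17. Its call in healthy tissue ended at -0.24 on the spike-in scale, at -0.19 with the mean over probes and at -0.28 without core replicate 1 or penumbra replicate 3, and its second probe gave 0.0085 there. Of the other 29 clock genes, 9 were higher and 2 lower in ischemic core than in ischemic penumbra, and 5 were higher and 2 lower in healthy core than in healthy penumbra. Among them Hlf lay higher by 0.61 ± 0.0030 in ischemic and 0.54 ± 0.025 in healthy tissue, and Bhlhe40 by 0.74 ± 0.083 in ischemic and 0.35 ± 0.029 in healthy tissue.

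The pieces also differ in make-up. Sums of markers are given in array order, 1 and 2 for core and 3 and 4 for penumbra. Striatal neuron markers summed to 135000 and 121000 in ischemic core, against 94100 and 113000 in healthy core. They summed to 354000 and 220000 in ischemic penumbra, against 247000 and 321000 in healthy penumbra. The ischemic penumbra sum was thus above the healthy one on array 3 and below it on array 4. Among these markers the ratio of Penk was 1.08 on array 3 and -0.86 on array 4. In the penumbra 6 of the 9 markers lay below 0 on both arrays and 1 above 0 on both. Of the 9 striatal markers 8 were called lower in healthy core. Choroid plexus markers summed to 1970 and 2040 in ischemic core and 35700 and 38500 in ischemic penumbra, and to 2000 and 2030 in healthy core and 22800 and 24200 in healthy penumbra. In core, Otx2 was not well above background on any array in either tissue, nor Ttr in ischemic tissue on replicate 2. All 8 were called lower in healthy core, and all 8 were called higher in ischemic than in healthy penumbra, with a median of 0.58. Meningeal markers were called higher in ischemic than in healthy penumbra for 4 of 8 genes (median 0.38), and thalamic and hypothalamic markers for 4 of 10 (median 0.20). In the core 0 of 8 meningeal markers were higher and 2 lower, and striatal markers were higher for 3 of 9 (median 0.22). Among those 3, Penk was at 0.80 on array 1 and 0.032 on array 2. Neutrophil markers were higher for 4 of 6 measured in the core (median 1.22) and for 3 of 6 in the penumbra (median 0.89). Cortical neuron markers were lower for 3 of 10 in the penumbra (median -0.078). Between healthy pieces, oligodendrocyte markers were lower in core for 8 of 8 (median -0.82), cortical neuron markers higher for 7 of 10 (median 0.43) and meningeal markers higher for 6 of 8 (median 0.76). By the same call, 4.4% of all features were higher and 0.982% lower in the core, and 5.35% and 2.44% in the penumbra. Between healthy pieces 6.97% of features were higher in core and 7.32% lower. The part of tissue make-up in the differences between pieces and in the responses of either region was not tested.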

How the data were processed

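Total RNA was labelled with a two-color low input kit, per the labels. Per the file headers, the deposited intensity of each spot and dye came from Agilent Feature Extraction 11.0.1.1. The deposited series table held log10 ratios, equal to the log10 of processed Cy5 over processed Cy3 signal within 5e-06. Median signals were corrected with normexp (offset 50) and normalized by loess in limma 3.58.1 (R 4.3.3). Control spots and spots marked as outliers had weight 0 and were left out. Ratios were turned to ischemic over healthy; single-channel levels were taken after Aquantile. Probes had to exceed background clearly in 1 tissue or more on both arrays, and a gene's brightest probe stood for it. Accessions were matched to a RefSeq table (GRCm38.p6); 23374 of 41174 probes were named. All 4 arrays shared 1 slide and 1 scan session, so no batch could be tested. In place of depth, median signals were 192 to 310 against backgrounds of 64 to 71, and the number of arrays limits the precision. The chain was tested on simulated data. Counts and medians were computed with pandas 2.3.3 (Python 3.11.15). The text names all members, other clock genes past the call, up to 4 called genes of the CREB and glucocorticoid lists by size in the core, and the 2 nearest genes to each called member, of which those of Cry1 are not reported here. Members, lists and the call were chosen with earlier results of these data known. Alternatives were other background corrections, scalings, filters, probe rules, call rules, limma over arrays and leaving out arrays.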

Additional observations from a re-analysis of the deposited data

How the results depend on the processing

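The precision is limited by the number of arrays, 2 per region forming 1 dye-swapped pair; all clock probes were well above background. Ischemic and healthy tissue were paired within each array, and core and penumbra arrays were paired by dye orientation only. Core and penumbra could not be paired by animal because the labels do not say which mice supplied each array. With normexp offset 10, with no filter on dim probes and with probes well above background in both tissues, all counts of called members were as reported. Agilent's processed signals and the deposited log ratios gave a median of 0.066 in the core and 0.102 for the difference of responses with the same counts, and the processed signals called 0 members higher in ischemic core than in ischemic penumbra.

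Scaling to spike-ins lowers every feature of a region alike, and the share of all features it calls was not counted. It called 1 member higher and 6 lower in the core (median -0.379), and 0 higher and 7 lower in the penumbra (median -0.476). It ended the calls of Per1 and Cry1 in both regions and of Per2 in the penumbra, but not of Per2 in the core (0.41) or of Dbp (-0.83 and -0.82). For pieces it called 1 higher and 0 lower in healthy core (median 0.127) and 4 higher and 0 lower in ischemic core (median 0.22), with a median of 0.079 for the difference of responses. Median centring called 2 lower in the penumbra (median -0.1), adding Tef at -0.36, and 2 higher for the difference of responses (median 0.186), with medians of -0.066 for healthy and 0.117 for ischemic pieces. The mean over probes called 0 lower in healthy and 0 lower in ischemic core pieces, with medians of 0.057 in the core, 0.065 for the difference of responses, -0.052 for healthy and 0.029 for ischemic pieces. The stricter call gave 0 higher and 0 lower in every comparison.

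Limma over arrays, whose p-values reflect array-to-array spread alone, called 1 higher and 0 lower in the core, where Per2 had an adjusted p of 0.0445. It called 0 in the penumbra, although 5 members had an unadjusted p under 0.05, 1 lower in healthy core and 0 among ischemic pieces, with 3 unadjusted. In the core it called 356 of 24531 features higher and 31 lower, and in the penumbra 406 of 24914 and 47. Between healthy pieces it called 1895 of 24891 features higher and 1610 lower, and between ischemic pieces 2208 of 24872 and 1878. A dye coefficient gave 4 members higher and 2 lower in the core, beside 3934 of 24531 features higher and 3311 lower. In the penumbra it gave 3 members higher and 4 lower, beside 5408 of 24914 features higher and 5270 lower. For the difference of responses it gave 2 members higher, beside 871 of 25246 features higher and 920 lower. It could not be fitted to the differences of pieces. The dimmer Per2 probe had means of the opposite sign: -0.009 in the core and 0.008 in healthy pieces, both smaller than their SD, and -0.084 in the penumbra. The second Cry1 probe also had the opposite sign, at 0.036 in healthy and 0.067 in ischemic pieces, both smaller than their SD.

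With an array left out in turn, 3 members were called higher each time in each region, 0 to 1 lower in the core and 1 to 2 lower in the penumbra. With 1 array left in a region, the sign rule is always met and dye bias does not cancel. These counts thus come from a looser rule than the main ones, and the share of all features it calls was not counted. In the penumbra these 3 were Per1, Per2 and Cry1 both times. In the core they were not the same genes: Nr1d1 (0.35) took the place of Per1 without core replicate 2, and Cry2 (0.345) that of Cry1 without core replicate 1. Medians ran from 0.049 to 0.079 in the core, from -0.036 to 0.042 in the penumbra and from 0.096 to 0.1 for the difference of responses, where 0 to 1 were called higher and 0 to 1 lower. For healthy pieces 1 was lower with medians from -0.017 to 0.034, and for ischemic pieces 0 to 1 were lower. The cause of these shifts was not tested.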
